A study of Arabidopsis thaliana with 24 samples.

Results

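Glutamate receptor-like proteins (GLRs) are the plant relatives of the ionotropic glutamate receptors of animal nerve cells. They are membrane channels that amino acids or related ligands can open, and they let cations, calcium among them, into the cell. Arabidopsis GLRs fall into 3 clades, and clade 2 is the one taken up here, GLR2.1 to GLR2.9, chosen by locus. Of its 9 genes, 5 had a probe set assigned to that gene alone and are described below: GLR2.2 (AT2G24720), GLR2.3 (AT2G24710), GLR2.7 (AT2G29120), GLR2.8 (AT2G29110) and GLR2.9 (AT2G29100). They are 5 of 16554 genes with such a probe set, and GLR2.1, GLR2.4, GLR2.5 and GLR2.6 were not analysed here.

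The samples were total RNA from roots and from shoots of 33-day-old Arabidopsis thaliana plants of the Col-0 background, hybridised to Affymetrix Gene 1.1 ST arrays for this species. The 8 groups of 3 biological replicates each were OX7.5 roots in -S and in nS, WT roots in -S and in nS, OX7.5 shoots in -S and in nS, and WT shoots in -S and in nS, where nS is sufficient sulfur and -S is low sulphate for 4 days. OX7.5 carries the whole open reading frame of NBR1, a receptor of selective autophagy, joined to a TAP tag and driven by a constitutive promoter of the cauliflower mosaic virus, which is active in most tissues. It is 1 transgenic line that still has its own NBR1, and WT is Col-0 without the transgene. NBR1 itself was not analysed here, so the overexpression was not checked on these arrays. The labels describe plants in soil and the study's methods describe hydroponic culture, and an array whose label does not name low sulphate was taken as nS. The sample numbers of nS and of -S arrays form separate runs, so any difference between those runs cannot be told apart from sulfur supply.

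All values are log2 signals, and a difference of 1 is a 2-fold change. A call means a change of at least 1.5-fold with an adjusted p under 0.05 in limma. The median signal of an array was 2.58 to 2.63 in roots and 3.92 to 3.97 in shoots, so levels were compared within a tissue only. Replicate arrays of a group correlated with Pearson's r of 0.973 to 0.991 over all 28583 probe sets. The tissue labels were checked on marker genes. RCA, which encodes the activase of Rubisco and was the 1 measured gene of 14 leaf markers, was above the array median on 12 of 12 shoot arrays and under it on 11 of 12 root arrays. The root hair expansins EXPA7 and EXPA18, the 2 measured genes of 6 root hair markers, were above the array median on all 12 root arrays and under it on all 12 shoot arrays.

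The 5 measured genes differed in the organ where their signal stood above the array median. GLR2.2 and GLR2.3 had signals around 6 in nS roots and were under the array median on all 12 shoot arrays. GLR2.7 and GLR2.8 had signals of about 4 to 7 in shoots and were under the array median on all 12 root arrays. GLR2.9 was under the median on 12 of 12 root arrays and on 11 of 12 shoot arrays. The array median is not a detection limit, and the size of a change is less certain below it. In the gene table of the TAIR10.1 assembly these 5 genes lie on chromosome 2 in 2 tandem runs, GLR2.3 next to GLR2.2, and GLR2.9 next to GLR2.8 and GLR2.7. The members of a tandem run are paralogs, and whether their probe sets share signal was not tested.

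**Figure D1:**
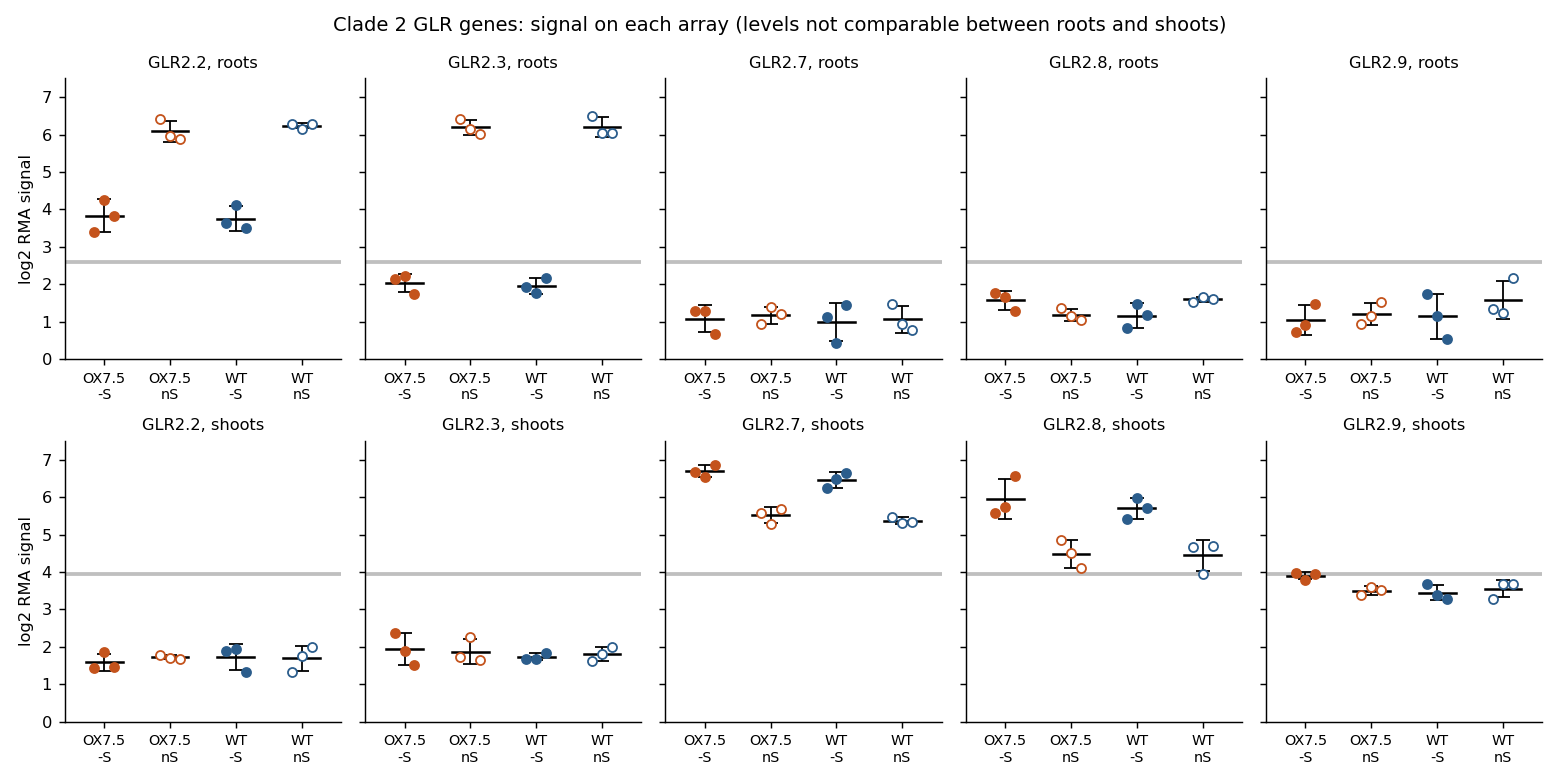
Log2 signal (y axis) of each of the 5 clade 2 genes on each of the 24 arrays by group (x axis), with a point for each array, a horizontal bar for the group mean with its SD (n = 3), filled points for -S and open points for nS. The grey band is the range of the array medians in that tissue, in the upper row roots and in the lower row shoots. GLR2.2 and GLR2.3 were lower in -S roots than in nS roots, and GLR2.7 and GLR2.8 were higher in -S shoots than in nS shoots of both lines.

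In roots, GLR2.3 was the member with the larger difference. In OX7.5 roots its signals were 2.14, 2.21 and 1.74 in -S, against 6.41, 6.16 and 6.01 in nS. In WT roots they were 1.93, 1.76 and 2.16 in -S, against 6.50, 6.03 and 6.05 in nS. Every -S root array lay below every nS root array in both lines, and all 6 -S root values were under the array median. The difference of -S minus nS was -4.16 in OX7.5 roots (SE 0.20, 95% interval -4.58 to -3.75) and -4.24 in WT roots (SE 0.20, -4.66 to -3.83), or 17.9-fold and 18.9-fold lower signals in -S. This fall of GLR2.3 in roots is the value for which the family was taken up, so the root differences of all 5 genes are given as a description, with no test.

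GLR2.2, its tandem neighbour, also had lower signals in -S roots. They were 3.38, 4.26 and 3.83 in -S, against 6.41, 5.97 and 5.87 in nS in OX7.5 roots. In WT roots they were 3.63, 4.13 and 3.51 in -S, against 6.27, 6.16 and 6.28 in nS. No -S array reached the lowest nS array in either line, and unlike GLR2.3 the -S signals of GLR2.2 stayed above the root array median. The difference was -2.26 in OX7.5 roots (SE 0.22, 95% interval -2.71 to -1.81) and -2.48 in WT roots (SE 0.22, -2.93 to -2.04). In fold terms GLR2.2 was 4.79-fold lower in OX7.5 and 5.59-fold lower in WT.

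The other run of genes had small differences in roots, all between signals under the array median. GLR2.7 differed by -0.10 in OX7.5 roots and -0.07 in WT roots, and GLR2.9 by -0.16 and -0.44. GLR2.8 had 1.77, 1.66 and 1.29 in -S OX7.5 roots, against 1.35, 1.16 and 1.04 in nS OX7.5 roots, a difference of 0.38. In WT roots it had 0.82, 1.48 and 1.17 in -S, against 1.52, 1.65 and 1.61 in nS, a difference of -0.44 with no overlap of the arrays. In each line 2 of 5 members, GLR2.3 and GLR2.2, were lower by at least 1.5-fold in -S roots, as were 7.46% of all genes in OX7.5 roots and 7.75% in WT roots. Nothing is read from that count, since the choice of the family used this contrast. The median difference over all genes was -0.02 in OX7.5 roots and -0.06 in WT roots.

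Marker genes of root hairs were read beside these values, since in whole roots fewer cells of a type and less RNA per cell cannot be told apart. EXPA7 differed by 0.11 in OX7.5 roots and -0.37 in WT roots, and EXPA18 by 0.14 and -0.39, none of them called with all arrays. Without replicate 3 of nS WT roots EXPA18 was called lower in WT roots (-0.66, limma adjusted p = 0.032). The mean of the 2 root hair markers ranged over 3.80 to 4.09 in -S OX7.5 roots and 3.54 to 4.09 in nS OX7.5 roots. In WT roots it ranged over 3.78 to 3.89 in -S and 3.90 to 4.51 in nS. Their part in the values of GLR2.2 and GLR2.3 was not tested, and none of 9 endodermis and 5 vascular markers had a single-gene probe set. Of 13 sulfur deficit markers 2 were measured. BGLU28, a beta-glucosidase gene known to respond to sulfur deficit, rose in -S roots by 3.86 in OX7.5 and 4.09 in WT (limma, adjusted p = 7.0e-09 and 2.3e-09). SDI2, a gene induced by sulfur deficiency, rose by 0.998 in OX7.5 roots (adjusted p = 0.00028) and differed by 0.35 in WT roots (adjusted p = 0.20). The difference between the lines in this response was not called (0.65, limma adjusted p = 0.43). For SDI2 in nS roots OX7.5 minus WT was -0.80 (limma adjusted p = 0.041), a call lost in 11 of 34 alternatives. In shoots neither marker was called. BGLU28 differed there by -0.01 in OX7.5 and 0.15 in WT, and SDI2 by 0.13 in OX7.5 and -0.46 in WT (adjusted p = 0.076), which was called lower without replicate 3 of -S (-0.59) or replicate 2 of nS (-0.64) WT shoots.

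**Figure D2:**
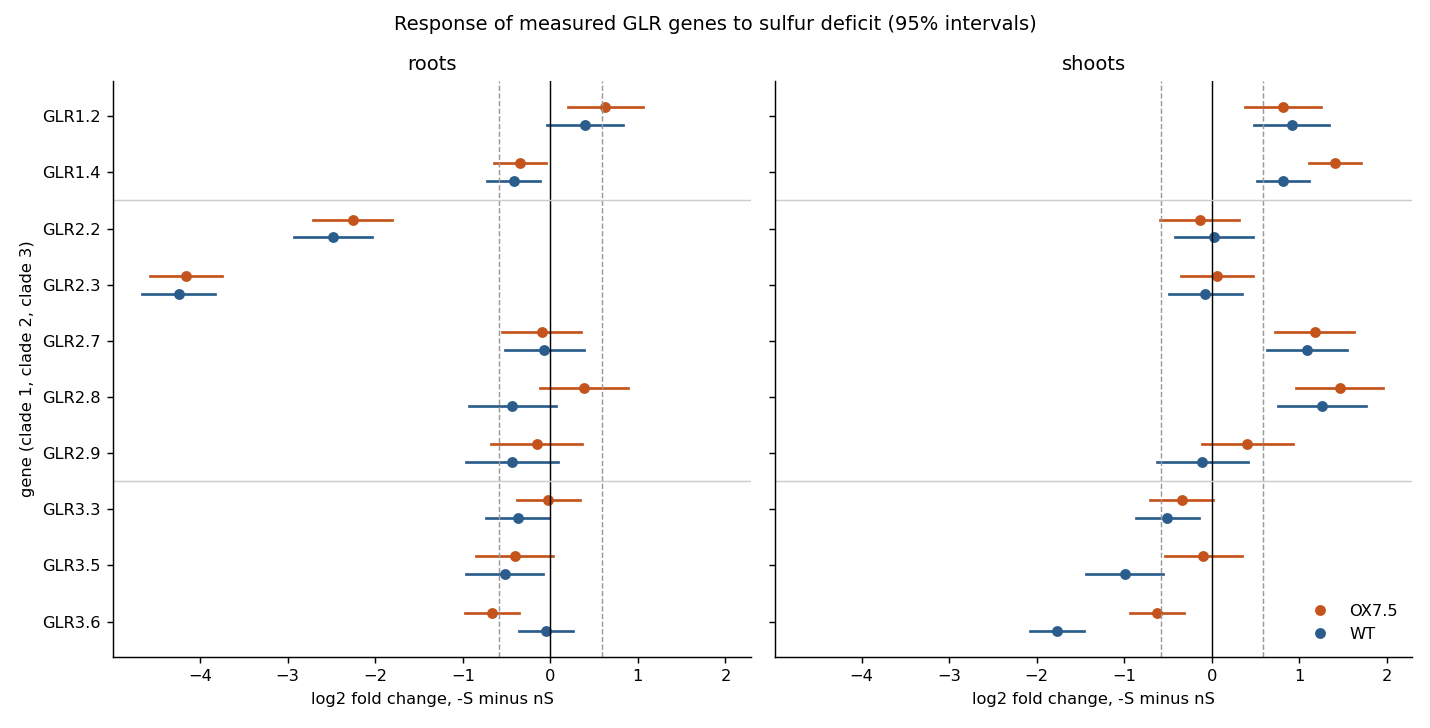
Difference of -S minus nS in log2 units (x axis) for the 5 clade 2 genes and, above and below them, the measured genes of clades 1 and 3, in roots and in shoots, with a point for the estimate in each line and a bar for its 95% interval. Dashed lines mark a 1.5-fold change. GLR2.3 lay near -4 and GLR2.2 near -2.3 in roots, and GLR2.7 and GLR2.8 lay above 1 in shoots, with the intervals of the lines overlapping for each of these.

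In shoots it was GLR2.7 and GLR2.8 that moved, and they rose. Arabidopsis plants that lack GLR2.7, GLR2.8 and GLR2.9 together are known for a weakened calcium signal after the perception of microbial molecules. GLR2.7 had 6.68, 6.55 and 6.86 in -S OX7.5 shoots, against 5.58, 5.29 and 5.69 in nS OX7.5 shoots. In WT shoots it had 6.25, 6.49 and 6.65 in -S, against 5.47, 5.32 and 5.34 in nS. The lowest -S array was above the highest nS array in each line. GLR2.7 rose by 1.18 in OX7.5 shoots (SE 0.22, 2.26-fold, limma adjusted p = 0.00043) and by 1.09 in WT shoots (SE 0.22, 2.12-fold, adjusted p = 0.00052).

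GLR2.8 rose by a similar amount. Its signals in OX7.5 shoots were 5.58, 5.73 and 6.56 in -S, against 4.86, 4.51 and 4.12 in nS. In WT shoots they were 5.42, 5.97 and 5.71 in -S, against 4.67, 3.96 and 4.70 in nS. Again no array overlapped between the sulfur supplies, although 1 nS WT array was just under the array median. The rise was 1.46 in OX7.5 shoots (SE 0.24, 2.76-fold, limma adjusted p = 0.00012) and 1.26 in WT shoots (SE 0.24, 2.39-fold, adjusted p = 0.00030).

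GLR2.9, the third gene of that run, was not called in shoots. It had 3.98, 3.79 and 3.95 in -S OX7.5 shoots, against 3.38, 3.6 and 3.53 in nS OX7.5 shoots, a difference of 0.41 (limma adjusted p = 0.34) with no overlap of the arrays. In WT shoots it had 3.67, 3.39 and 3.27 in -S, against 3.29, 3.68 and 3.69 in nS, a difference of -0.11 with overlapping arrays (adjusted p = 0.83). GLR2.2 and GLR2.3, both dim in shoots, had signals of 1.34 to 2.01 and 1.52 to 2.38 over the 12 shoot arrays. GLR2.2 differed by -0.14 in OX7.5 shoots and 0.03 in WT shoots, and GLR2.3 by 0.06 and -0.07. None of these 4 values was called.

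Thus 2 of 5 members were called in shoots of each line, both higher in -S. Over all genes 11.3% were called in OX7.5 shoots and 18% in WT shoots, and 5.75% and 8.62% were called as higher. The median difference over all genes was -3.0e-04 in OX7.5 shoots and -0.03 in WT shoots. The arrays of -S lay all above those of nS for 3 of 5 members in OX7.5 shoots and 2 of 5 in WT shoots, against 15.9% and 17.3% of all genes. The leaf marker RCA, in contrast, differed by -0.33 in OX7.5 shoots (adjusted p = 0.16) and by -0.54 in WT shoots (adjusted p = 0.0083), neither of them reaching 1.5-fold. RCA signals were 10.6 to 10.9 in -S OX7.5 shoots, 11.1 on the nS OX7.5 arrays, 10.6 to 10.7 in -S WT shoots and 11.1 to 11.3 in nS WT shoots. Its part in the values of GLR2.7 and GLR2.8 was not tested. The sulfur deficit markers BGLU28 and SDI2 were not called in these shoots with all arrays, as given above.

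Set side by side, the estimate of the response was lower in roots than in shoots for every measured member, with intervals that cross 0 for GLR2.9. As roots minus shoots, the -S response differed by -4.22 in OX7.5 and -4.17 in WT for GLR2.3, and by -2.12 and -2.51 for GLR2.2. For these 2 genes it was the root value that was away from 0. For GLR2.7 the difference was -1.27 in OX7.5 and -1.15 in WT, and for GLR2.8 it was -1.08 and -1.69, where the shoot value was the larger one. GLR2.9 had -0.56 in OX7.5 (95% interval -1.30 to 0.17) and -0.33 in WT (-1.07 to 0.41). These values contain the root response and so carry no test. By size alone, 4 of 5 members in each line were lower by at least 1.5-fold in roots relative to shoots, and so were 11.6% of all genes in OX7.5 and 13.1% in WT, a count from which nothing is read.

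**Figure D3:**
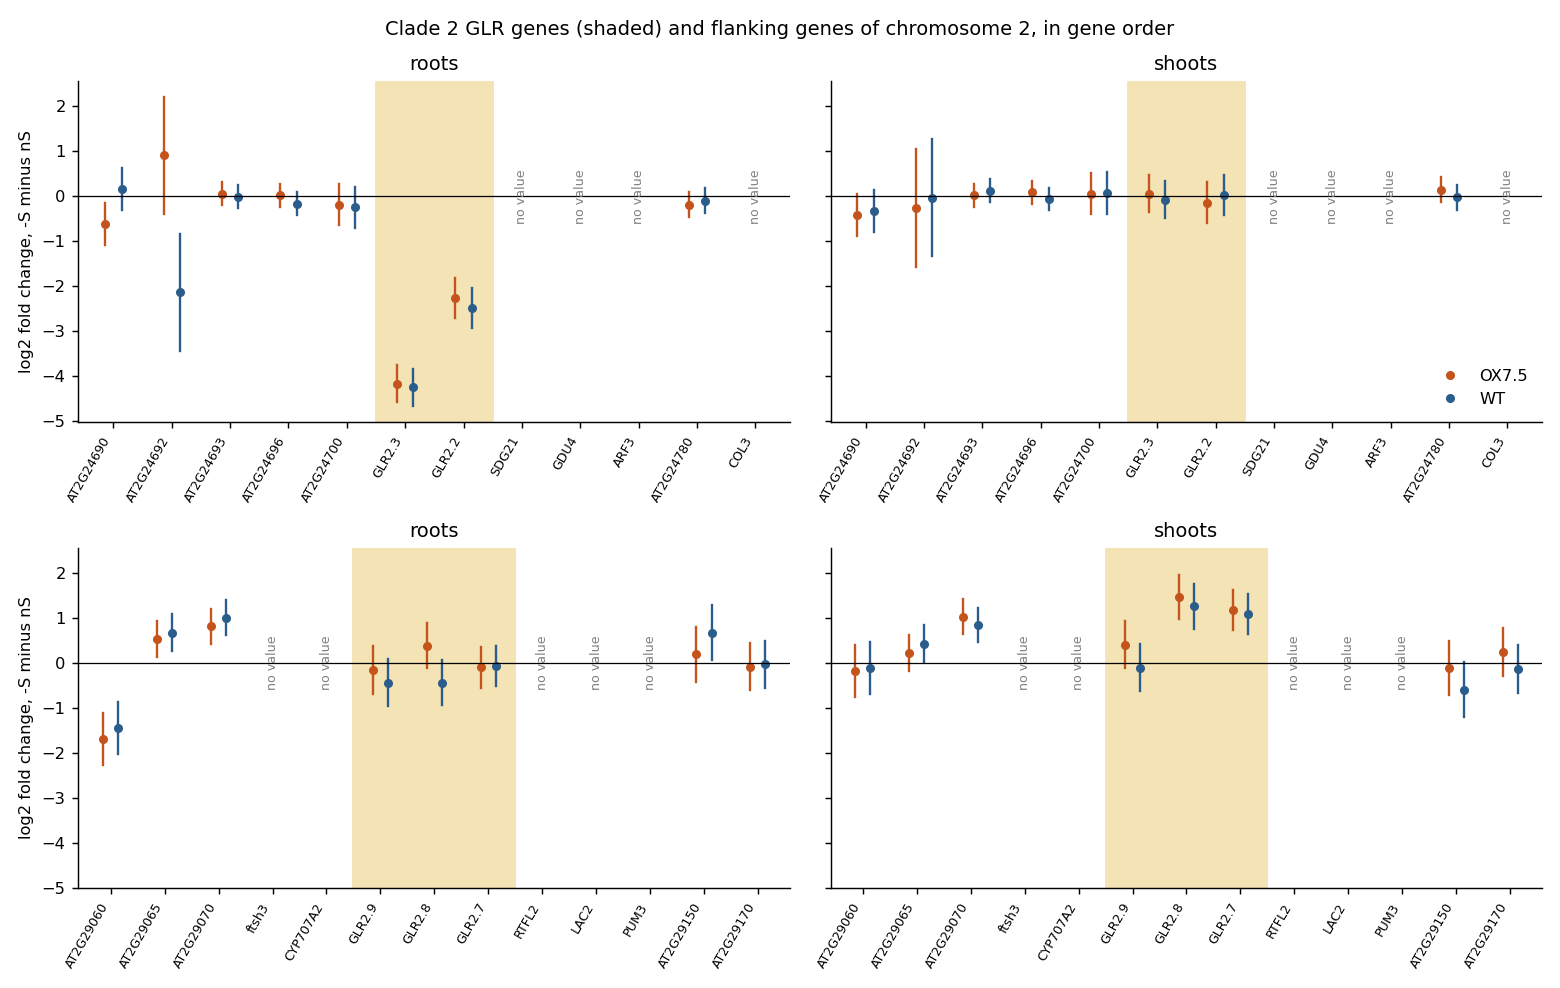
Difference of -S minus nS in log2 units (y axis, with 95% intervals, OX7.5 and WT as separate points) for the 2 tandem runs and the 5 genes on each side, in gene table order along the x axis. The clade 2 genes are shaded, and genes with no single-gene probe set are marked as without a value. GLR2.3 and GLR2.2 in roots, and GLR2.8 and GLR2.7 in shoots, stood away from 0 in both lines. Among flanking genes, intervals left out 0 in both lines for AT2G29060 and AT2G29065 in roots and AT2G29070 in both tissues. They also did so for AT2G24690 in OX7.5 roots, AT2G24692 and AT2G29150 in WT roots, and AT2G29065 in WT shoots.

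The genes that flank the 2 runs were looked at for shared movement. Around GLR2.3 and GLR2.2, 6 of 10 flanking genes were measured. In OX7.5 roots 0 of 6 were called (limma), with differences of -0.61 to 0.91 and 1 unadjusted p under 0.05, that of AT2G24690, which was called in 8 of 34 alternatives. In WT roots 1 was called, AT2G24692, at -2.13 (SE 0.63, limma adjusted p = 0.016), although its arrays overlapped between -S and nS. That call was lost without replicate 1 of -S WT roots (-2.03) and without replicate 1 or 2 of nS WT roots (-1.53 and -1.55), with the root arrays fitted alone (adjusted p = 0.064) and with an intensity trend and robust moderation (adjusted p = 0.050). In shoots 0 of 6 were called in each line, with 0 unadjusted p under 0.05. Of all 16554 genes, 4843 in OX7.5 roots, 4267 in OX7.5 shoots and 5478 in WT shoots had an unadjusted p under 0.05. Around GLR2.9 to GLR2.7, 5 of 10 were measured. In shoots 1 of 5 was called as higher in each line and 0 as lower. In roots 1 was called as higher and 1 as lower in OX7.5, and 2 as higher and 1 as lower in WT. Over all genes 14.9% were called in OX7.5 roots, 16.4% in WT roots, 11.3% in OX7.5 shoots and 18% in WT shoots. With so few flanking genes measured around each run, nothing is read from these counts. AT2G29070 was the gene called in shoots, higher in -S by 1.02 in OX7.5 and 0.84 in WT (adjusted p = 0.00035 and 0.0013). AT2G29070 also rose in -S roots, by 0.81 in OX7.5 and 1.004 in WT (adjusted p = 0.0022 and 0.00025, the call in OX7.5 being lost at 0.53 without replicate 2 of the nS arrays), where GLR2.7 and GLR2.8 were under the array median. AT2G29060 fell by 1.70 in -S OX7.5 roots and by 1.44 in -S WT roots (adjusted p = 6.3e-05 and 0.00039). AT2G29065 rose by 0.67 in -S WT roots (adjusted p = 0.014), a call lost without replicate 1 of the -S arrays (0.52) or of the nS arrays (0.56), and differed by 0.53 in OX7.5 roots (adjusted p = 0.057, called at 0.66 without replicate 2 of the -S arrays). AT2G29150 differed by 0.67 in WT roots (limma adjusted p = 0.10, called in 6 of 33 alternatives) and by -0.59 in WT shoots (adjusted p = 0.16, called in 2 of 33). The flanking genes named here were chosen after their values were seen.

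Between the lines, no member was called. OX7.5 minus WT was called for 0 of 5 members in -S roots, nS roots, -S shoots and nS shoots (limma), and 0 of 5 had an unadjusted p under 0.05 in each of these. Of all 16554 genes, 633 in -S roots, 2305 in nS roots, 1019 in -S shoots and 1785 in nS shoots had an unadjusted p under 0.05. Over all genes the calls were 0% in -S roots, 0.803% in nS roots, 0.0785% in -S shoots and 1.62% in nS shoots, so few genes of any kind were called between the lines. The widest gap was that of GLR2.9 in -S shoots, at 0.46 (95% interval -0.06 to 0.99, limma adjusted p = 0.88). GLR2.8 differed by 0.41 in -S roots (-0.08 to 0.91, adjusted p = 0.9999) and by -0.41 in nS roots (-0.91 to 0.09, adjusted p = 0.48).

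The intervals bound what the arrays could have missed. For GLR2.3, OX7.5 minus WT was 0.08 in -S roots (95% interval -0.34 to 0.50) and -0.0012 in nS roots (-0.42 to 0.41). For GLR2.2 it was 0.07 in -S roots (-0.38 to 0.52) and -0.15 in nS roots (-0.60 to 0.29). For GLR2.7 it was 0.23 in -S shoots (-0.22 to 0.68) and 0.14 in nS shoots (-0.31 to 0.59). For GLR2.8 it was 0.26 in -S shoots (-0.24 to 0.75) and 0.05 in nS shoots (-0.45 to 0.55). These intervals reach beyond the 1.5-fold limit of 0.585 on 1 side for GLR2.2 in nS roots, GLR2.7 in shoots of both supplies and GLR2.8 in -S shoots.

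**Figure D4:**
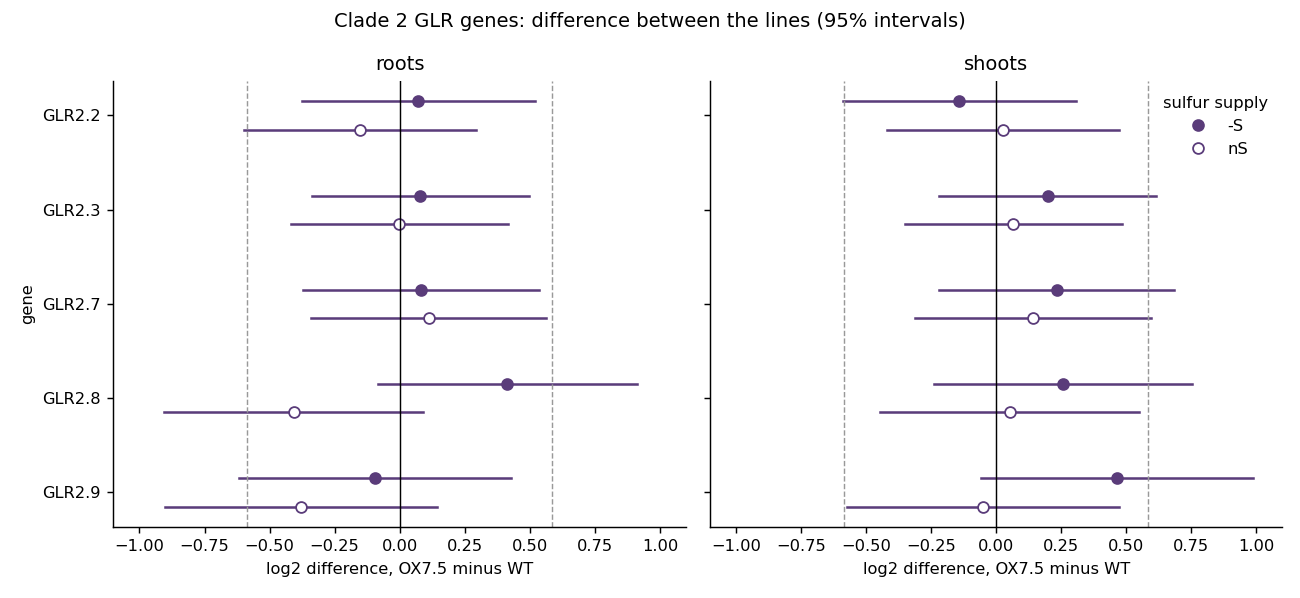
OX7.5 minus WT in log2 units (x axis) for the 5 genes in roots and shoots, with 95% intervals, filled points for -S and open points for nS. Dashed lines mark a 1.5-fold change. Every interval crosses 0.

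The -S response itself was then compared between the lines, as the response in OX7.5 minus that in WT. None of the 5 members was called in roots or in shoots, where 0.0604% and 0.538% of all genes were called. At an unadjusted p under 0.05 (limma) there were 0 members in shoots. The widest difference in roots was that of GLR2.8, at 0.82 (SE 0.34, 95% interval 0.12 to 1.52), from which nothing is read. Of all 16554 genes, 1596 in roots and 1479 in shoots had an unadjusted p under 0.05. Among all genes 5.38% met the fold limit and an unadjusted p under 0.05 in the root comparison. All the GLR2.8 signals behind it were under the root array median. For GLR2.3 the difference in roots was 0.08 (-0.51 to 0.67) and for GLR2.2 it was 0.22 (-0.41 to 0.86). In shoots it was 0.09 for GLR2.7 (-0.55 to 0.73), 0.21 for GLR2.8 (-0.50 to 0.91) and 0.51 for GLR2.9 (-0.22 to 1.25). All 5 intervals cross 0, and each reaches past the 1.5-fold limit on its upper side and not on its lower side.

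The order of the group levels followed the sulfur supply. For GLR2.7 in shoots it was, from the highest, -S OX7.5 (6.70 ± 0.16), -S WT (6.46 ± 0.20), nS OX7.5 (5.52 ± 0.21) and nS WT (5.38 ± 0.08; mean ± SD, n = 3 each). For GLR2.8 in shoots the same order held, at 5.96 ± 0.53, 5.70 ± 0.28, 4.49 ± 0.37 and 4.44 ± 0.42. The neighbours of one sulfur supply were not called as different in either gene. For GLR2.2 in roots the -S groups were OX7.5 (3.83 ± 0.44) and WT (3.75 ± 0.33), both below the nS groups OX7.5 (6.08 ± 0.29) and WT (6.24 ± 0.07). For GLR2.3 in roots they were OX7.5 (2.03 ± 0.25) and WT (1.95 ± 0.20) in -S, below OX7.5 (6.19 ± 0.20) and WT (6.19 ± 0.27) in nS.

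**Figure D5:**
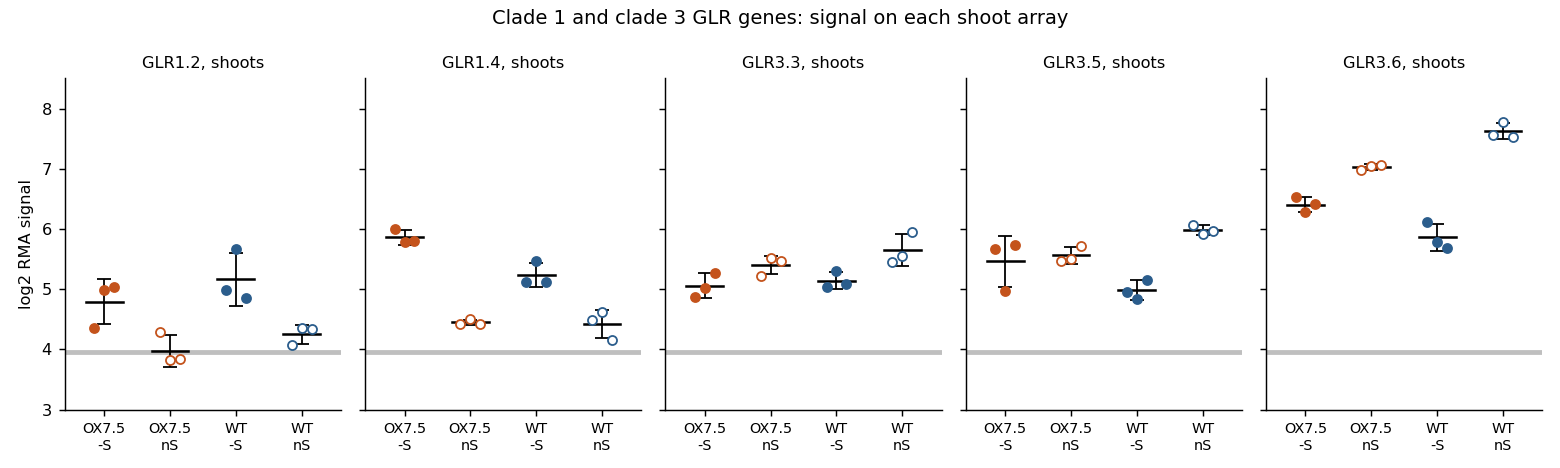
Log2 signal (y axis) of the measured clade 1 and clade 3 genes on each of the 12 shoot arrays by group (x axis), with a point for each array, a bar for the group mean with its SD (n = 3), and the range of the shoot array medians in grey. In both lines every -S array was above every nS array for GLR1.2 and GLR1.4 and below every nS array for GLR3.6.

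The other clades of the family were set beside clade 2 in shoots. Clade 1 had 2 of 4 genes measured, and both rose in -S shoots of both lines. GLR1.4, a channel that methionine opens when it is expressed in frog oocytes, rose by 1.41 in OX7.5 and 0.81 in WT (limma, adjusted p = 2.3e-07 and 0.00014). GLR1.2, known for its part in calcium entry of growing pollen tubes, rose by 0.81 and 0.91 (adjusted p = 0.0078 and 0.0017). Clade 3 had 3 of 7 genes measured. Of these 0 were called higher, while 1 was called lower in OX7.5 shoots and 2 in WT shoots. Over all genes 11.3% were called in OX7.5 shoots and 18% in WT shoots, and 5.75% and 8.62% were called as higher. GLR3.3 differed by -0.34 in OX7.5 shoots (limma adjusted p = 0.22) and by -0.51 in WT shoots (adjusted p = 0.034), under the 1.5-fold limit. In WT shoots it was called lower without replicate 2 of -S (-0.59) or replicate 1 of nS (-0.61). GLR3.6, needed with GLR3.3 for the electrical signals that spread from a wounded leaf, fell by 0.62 in OX7.5 shoots and by 1.77 in WT shoots (adjusted p = 0.0045 and 4.8e-09). The call in OX7.5 was lost without replicate 2 of -S OX7.5 shoots (-0.56). The -S response of GLR3.6 differed between the lines by 1.14 (SE 0.21, adjusted p = 0.0096), and with the shoot arrays fitted alone that call was lost (adjusted p = 0.058). GLR3.5 fell by 0.996 in WT shoots (adjusted p = 0.00094) and differed by -0.10 in OX7.5 shoots (adjusted p = 0.84), and the difference between the lines was not called (0.90, adjusted p = 0.26).

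In OX7.5 roots 1 of 2 measured genes of clade 1 and 1 of 3 of clade 3 were called, where 14.9% of all genes were. In WT roots 0 were called in either clade, where 16.4% of all genes were. GLR1.2 was called higher in -S OX7.5 roots at 0.63 (limma adjusted p = 0.033), a call that was lost without any one of the OX7.5 nS root arrays and 2 of the -S ones, down to 0.43. All root signals of GLR1.2 were under the array median. GLR3.6 fell by 0.67 in -S OX7.5 roots (adjusted p = 0.0018) and differed by -0.05 in WT roots (adjusted p = 0.85). The difference between the lines in that response was not called (-0.61, limma adjusted p = 0.35). No other gene of clades 1 and 3 was called in roots of either line. Cornichon homologs, which carry GLR proteins from the endoplasmic reticulum to their target membranes, had 5 of 5 genes measured. In shoots 0 of 5 were called in each line, where 11.3% of all genes were called in OX7.5 and 18% in WT. At an unadjusted p under 0.05 (limma) there were 0 of 5 in OX7.5 shoots, against 1 of 5 in WT shoots. Of all 16554 genes, 4267 in OX7.5 shoots and 5478 in WT shoots had an unadjusted p under 0.05. In roots CNIH5 fell by 0.67 in OX7.5 and by 0.96 in WT (adjusted p = 0.037 and 0.0030), and CNIH1 and CNIH2 rose by 0.78 and 0.64 in WT roots (adjusted p = 0.0072 and 0.048). The -S and nS arrays of CNIH2 overlapped, and its call was lost in 17 of 33 alternatives, the root arrays fitted alone and the replicate block among them. All root signals of CNIH2 were under the array median. The call of CNIH1 was lost without replicate 1 of nS WT roots (0.53), and that of CNIH5 in OX7.5 roots without any 1 of 5 arrays of those 2 groups. None of the 21 cyclic nucleotide-gated and TPC1 channel genes listed as other calcium entry routes had a single-gene probe set.

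The pattern of GLR2.3 over the 12 root arrays was most like that of AT1G70880, AT3G10020 and AT4G29905 (Pearson's r = 0.996 each), AT1G72200 and AT1G06620 (0.993 each). These arrays share the contrast of -S and nS, so the coefficients largely restate it, and with the group means taken out they were 0.864, 0.699, 0.681, 0.635 and 0.313 in the same order. GLR2.2 and GLR2.3 correlated at 0.974 over the root arrays and at 0.059 with the group means taken out. Over the 12 shoot arrays, where GLR2.3 was dim, the most similar genes were AT4G12370 (r = 0.926), AT1G23965 (0.905), AT4G08640 (0.881), AT1G06930 (0.875) and AT1G13680 (0.872). GLR2.7 and GLR2.8 correlated at 0.910 over the shoot arrays and at 0.373 with the group means taken out. All these coefficients are descriptions over arrays of a few groups.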

How the data were processed

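Log2 signals of 28583 probe sets on 24 arrays were deposited by the authors, who made them with RMA in Partek. Versions and genome build are not given in the sources used here. Array medians differ by tissue as if each tissue had been normalized on its own. In the platform annotation 17504 probe sets had a gene, 16746 exactly 1 and 758 several. The brightest single-gene probe set of a gene was kept (192 dimmer ones dropped), leaving 16554 genes, 16418 of them in the RefSeq gene table (TAIR10.1). No value was missing.

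The study's methods name a 3-way ANOVA with limits of 1.5-fold and an unadjusted p. Here limma 3.58.1 (R 4.3.3) fitted 8 group means over 24 arrays with empirical Bayes (16 residual and 7.83 prior degrees of freedom) and 12 contrasts. P-values were adjusted by Benjamini-Hochberg over all 16554 genes. A call needed 1.5-fold (0.585 in log2) and an adjusted p under 0.05. Code was tested on simulated data. The number of arrays limits the precision.

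Members, gene lists and tests were chosen with earlier results of these data known. Every measured member was to be named, of each list at most the 3 largest changes in a contrast, and the 5 genes most correlated with GLR2.3 in each tissue. Alternatives changed the arrays, probe sets, filter, scaling, moderation, weights and thresholds. Promoter and protein sequences were not analysed here.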

Additional observations from a re-analysis of the deposited data

Results flagged for a closer look

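Of the measured genes of clade 2, 4 had a response to -S that differed between the organs by more than 1.5-fold, as roots minus shoots in log2 units. The values were -2.12 in OX7.5 and -2.51 in WT for GLR2.2, -4.22 and -4.17 for GLR2.3, -1.27 and -1.15 for GLR2.7, and -1.08 and -1.69 for GLR2.8. No test is read from them, because the root fall of GLR2.3 led to the choice of the family. Of the other clades, GLR1.4 differed between the organs by -1.75 in OX7.5 and -1.23 in WT (limma, adjusted p = 1.8e-06 and 9.6e-05). All root signals of GLR1.4 were under the array median, where the size of a change is less certain. GLR3.6 differed by 1.71 in WT (adjusted p = 2.3e-06), and its response in shoots differed between the lines by 1.14, with OX7.5 falling less than WT (adjusted p = 0.0096). No group of this design was large enough to be searched for outlying arrays.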

How the results depend on the processing

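Of 34 alternatives, 24 left out 1 array each. The 4 -S differences of members called in shoots (GLR2.7 and GLR2.8, each in both lines) kept their direction and their call in all 34. Not all of these could move a difference. Leaving out an array outside the compared groups changes only its p-value, and each member has 1 single-gene probe set, so averaging probe sets leaves its signals unchanged. The 4 root differences of GLR2.2 and GLR2.3, which carry no test, stayed lower by at least 1.5-fold, a description only. GLR2.2 ranged from -2.48 to -2.04 in OX7.5 roots and from -2.67 to -2.36 in WT roots, and GLR2.3 from -4.25 to -4.02 and from -4.35 to -4.09. GLR2.7 ranged from 1.06 to 1.26 in OX7.5 shoots and from 0.99 to 1.2 in WT shoots, and GLR2.8 from 1.16 to 1.65 and from 1.02 to 1.4. In roots 1 member, GLR2.8, met the methods' unadjusted limits for a -S response that differed between the lines, as did 5.38% of all genes. All its root signals were under the array median. Nothing is read from this, since the comparison contains the root response. Without replicate 1 of -S WT roots the difference of GLR2.9 there was -0.74, against -0.44 with all arrays. The filter on dim genes left 9782 genes and dropped GLR2.9. Within a tissue, same-numbered arrays showed little shared deviation (r from -0.079 to 0.112 in roots and from -0.239 to 0.143 in shoots), and they were fitted as unpaired. Whether root and shoot arrays of the same number came from the same plants was not examined, and the organ differences treat them as independent. With a replicate block the counts called were 2 of 5 under -S in shoots of both lines and 0 between the lines, as without it, and among the other genes named the call of CNIH2 in WT roots was lost (adjusted p = 0.053).

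Members under the array median, GLR2.9 above all, have the least certain sizes. Replicates are called biological in the labels, but nothing states how many plants each held, and p-values measure the spread between these samples only. GLR3.6 in nS shoots was lower in OX7.5 than in WT by 0.60 (limma, adjusted p = 0.038), a call lost in 9 of the 34 alternatives.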
